A study of Homo sapiens with 4 samples.

Results

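The 5' UTR m6A peaks of OMM2.3 cells are the regions of N6-methyladenosine (m6A) enrichment that the authors annotated to the 5' untranslated region (UTR) of a transcript. OMM2.3 is an established human uveal melanoma cell line. It was wild type in every sample, per the labels. Treated cells (MA) received meclofenamic acid for 24 h and control cells (NC) received DMSO for the same time. Meclofenamic acid is a cyclooxygenase inhibitor that also inhibits the RNA demethylase FTO. For each condition, transcript levels came from 1 input library and the peak list from 1 library of RNA fragments bound by an antibody to m6A (RIP). All 4 libraries came from the same line, and no group had a replicate. No p-value was therefore computed, and every difference below describes these libraries only. The members are all rows of the peak lists with that annotation, counted a single time where a row repeated the same position and strand. They numbered 3187 of 22067 NC peaks, or 14.4% (exact 95% binomial interval 14.0 to 14.9%), and 2978 of 19929 MA peaks, or 14.9% (14.5 to 15.4%). Together they made up 6165 of 41996 peaks. Intervals of shares cover counting error only, and peaks of 1 library are not replicates of a condition.

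Most m6A in mRNA is placed by the nuclear METTL3-METTL14 complex at adenosines within a short consensus, chiefly near stop codons and in 3' UTRs. In the 5' UTR, m6A has been linked to cap-independent initiation of translation and to the stress response. A second mark sits at the cap itself. When the first transcribed base is adenosine, PCIF1 can methylate it to m6Am, which antibodies to m6A also bind and which FTO can demethylate. A 5' UTR peak can therefore hold either mark, and an antibody peak does not separate them.

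The sequences at the annotated transcript starts nearest to the peaks were set out first because an adenosine start could carry m6Am. No 5' UTR peak began exactly at a start. Where a peak began after the start, the start base lay outside the deposited peak. The 7 starts given here are from 8 NC peaks, those of highest fold under a set rule. They began 1 to 50 bp downstream of a start and had a 5' UTR peak of the MA list over them. Their genes had at least 5 FPKM in each input, and an MA 5' UTR peak began within 200 bp of the same start. Chromosomes 8 and Y were left out. This rule was written after the values had been seen. Each line gives 25 bases, 5' to 3', from RefSeq (GRCh38.p14), and the capitals mark the start base and the 2 bases before it.
CDK12 (chr17:39461477-39461501, plus strand): cccttccCCAagtgccgtttcggtt
STK40 (chr1:36385909-36385933, minus strand): cggtgcgTCActtccgttgtcaggt
MED11 (chr17:4731419-4731443, plus strand): ccgagagCCActtccggaacaagcg
TFCP2 (chr12:51173120-51173144, minus strand): tgacgtcATGttcgccgggcaggcg
TOB1 (chr17:50866339-50866363, minus strand): cgccgcgGCAgaaggagcgaagctc
ZC3H18 (chr16:88570394-88570418, plus strand): cggcctgATGacgtcgcacaatggc
TCEAL3 (chrX:103607954-103607978, plus strand): ggcgcccGCGcagaaccagctgtct

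Of the 8 starts, 5 had adenosine as the first base, among them CDK12, STK40, MED11 and TOB1, and 3 had guanosine (TFCP2, ZC3H18 and TCEAL3). In these 4 genes the adenosine closed a CCA, TCA or GCA triplet, and in the other it did not. CDK12, a kinase of elongating RNA polymerase II, had an NC peak with an authors' fold enrichment of 13.5 that began 50 bp after the start and covered 1350 exonic bases. The kinase gene STK40 had an NC peak of fold 12 over 201 bp, also beginning at 50 bp. The peak of MED11, a Mediator subunit, had a fold of 10.0 over 797 bp. That of TOB1, an antiproliferative adaptor of mRNA deadenylation, had a fold of 9.67 and began 13 bp after the start. In the MA list the peak of TOB1 began at 112 bp and that of CDK12 at 50 bp.

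Adenosine starts were more frequent the closer the peak lay to the start. Of the 12691 annotated starts of genes tested (1 FPKM or more in at least 1 input), 45.6% had adenosine as the first base. Among the 892 starts within 200 bp of an NC 5' UTR peak the share was 59.1% (55.8 to 62.3%), and among the 737 starts near an MA peak it was 60.5% (56.9 to 64.1%). Both intervals lay above the share over all starts. In the NC list the share was 63.3% where the peak began 1 to 50 bp after the start, 53.3% at 51 to 100 bp and 49.2% at 101 to 200 bp. It was 48.6% at 201 to 1000 bp and 42.2% at 1001 to 10000 bp. The MA list gave 65.5%, 56.7%, 52.4%, 46.2% and 44.1% for the same distances. In each list the share was thus lower at every further step. The intervals of neighbouring steps overlapped in every case, while those of the nearest and the farthest step did not (59.1 to 67.3% and 37.7 to 46.8% in NC, 60.6 to 70.3% and 39.6 to 48.7% in MA). In genes with 1 annotated start, where the nearest start is not a choice among several, the share near a peak was 58.6% (NC) and 61.2% (MA), against 45.0% over all starts of such genes. That limit was added after the values had been seen.

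**Figure D1:**
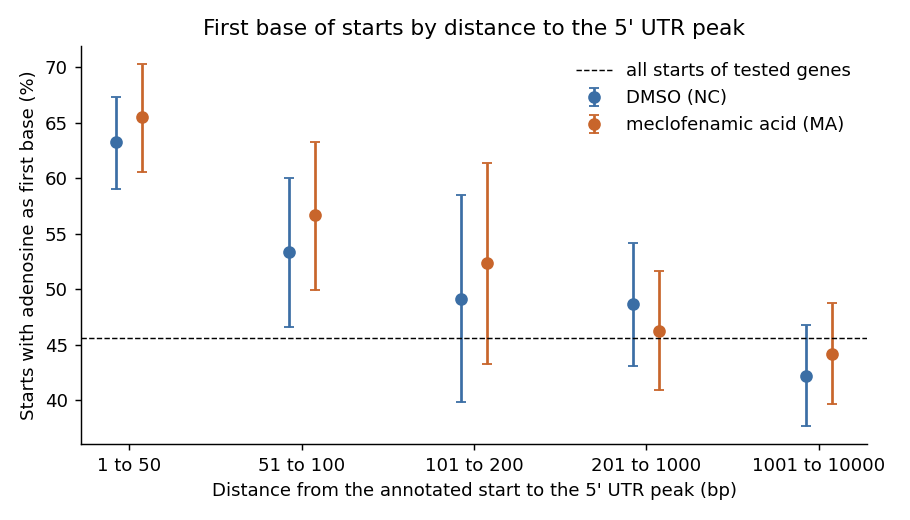
Share of annotated transcript starts with adenosine as first base (y axis, percent) by the distance from the start to the beginning of the 5' UTR peak (x axis, bp), for the DMSO (NC, blue) and meclofenamic acid (MA, orange) lists. Bars are exact 95% binomial intervals and the dashed line is the share over all starts of tested genes (45.6%); the points nearest to the start are at 63.3% and 65.5%.

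Other features of the starts differed by smaller margins. A CCA, GCA or TCA triplet ending on the start base occurred at 30.7% of all starts, at 39.9% of those near an NC peak and at 39.3% near an MA peak. A cytidine start occurred at 12% of all starts, against 7.74% near NC and 6.92% near MA peaks. A C start followed by 4 pyrimidines, the outline of the terminal oligopyrimidine motif of ribosomal protein mRNAs, occurred at 5.45% of all starts and at 3.03% and 2.99% of those near NC and MA peaks. The m6A consensus was searched on the transcript strand as 18 words of 5 bases (A, G or T, then A or G, then AC, then A, C or T). It was found in the first 50 bases after 40.4% of all starts, 42.8% near NC peaks and 44.0% near MA peaks, and the intervals of both lists (39.6 to 46.1% and 40.3 to 47.6%) included the share of all starts. GGAC, which overlaps the consensus, was found at 19.7%, 20.6% and 22.3%. Within 200 bp of a start, only 222 of 933 NC and 151 of 767 MA peaks began 1 to 46 bp after it. The 50 bases searched therefore lay mostly outside the peaks, and these shares do not describe the sequence inside them. A match describes letters only and does not show a modified site.

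The adenosine share did not separate the lists or the peaks that both shared. It was 58.8% at starts of NC peaks with an overlapping MA peak and 59.5% without one, and 60.8% and 59.7% in the MA list. Starts near start codon peaks, the class that adjoins the 5' UTR, had shares of 59.0% (NC) and 62.6% (MA). Starts near either class were thus above the 45.6% of all starts. Over all annotated starts, whatever their distance to a peak, the share was 49.9% in genes with a 5' UTR peak in both lists, 49.6% with one in NC only and 51.1% in MA only. It was 44.3% in genes with other peaks only and 38.8% (36.4 to 41.4%) in tested genes with no peak.

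Peaks whose sequence could be read outside the immediate start were few, since no genome was used and the start windows span 250 bases before to 50 after a start. The parts of 82 NC and 39 MA single-exon peaks inside such windows held 16.0 and 16.6 consensus words per kb, against 12.4 in all windows of tested genes and 10.4 in the first 50 bases. GGAC stood at 4.45 and 4.83 per kb against 4.38. The consensus rates rest on 115 (NC) and 62 (MA) matches in a small part of the class, without an interval. They do not describe 5' UTR peaks in general. Examples with GGACT in capitals are given because this is the best known form of the consensus. TIAL1 encodes an RNA-binding protein of stress granules, PLK4 the kinase of centriole duplication, and BRD2 a bromodomain reader of acetylated histones. Each example lies inside a peak, in RefSeq sequence of GRCh38.p14.
TIAL1 (chr10:119597168-119597188, minus strand): gaactctgGGACTtgtagttc
PLK4 (chr4:127881076-127881096, plus strand): cctcgaagGGACTgcgtgaag
BRD2 (chr6:32972847-32972867, plus strand): ggccacccGGACTttccgcgg

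The TIAL1 peak came from the NC list, with a fold of 5.00 over 151 bp and no partner in the MA list. The PLK4 and BRD2 peaks came from the MA list, with folds of 2.69 and 1.71, and each overlapped an NC peak annotated to the start codon. The TIAL1 peak began 231 bp upstream of the nearest annotated start, and that of BRD2, 249 bp long, began 435 bp upstream. Both peaks, with their GGACT, thus lay wholly upstream of that start, while the PLK4 peak began 50 bp after one. These 3 were picked after their values had been seen.

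The annotation did not place every peak at the 5' end of its gene. Where the position within the gene's RefSeq span could be taken, 761 of 3064 NC peaks (24.8%) and 784 of 2900 MA peaks (27.0%) had their middle nearer to the 3' end than to the 5' end of the gene. The median position was 23.7% of the way along the gene in NC and 28.3% in MA. Middles were taken on genomic spans, so introns shift those of peaks over several exons. Of the peaks in the 3' part, 37.2% (NC) and 32.8% (MA) lay within 1 exon. Start codon peaks were further upstream on this measure, with medians of 12.6% and 17.8%, and 3' UTR peaks lay at 94.0% and 93.7%. The class is therefore called by the authors' annotation throughout, and its label does not fix a position at the first exon. The transcript chosen for each annotation is not given in the sources used here, and whether alternative transcripts placed these peaks was not tested.

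Distances to annotated starts gave the same spread. Of the 5' UTR peaks, 2637 NC and 2488 MA peaks lay in genes with a start in the RefSeq table. Of these, 35.4% (NC) and 30.8% (MA) began within 200 bp of a start, and 26.7% and 30.02% began more than 10000 bp from every start of the gene. The median distance was 543 bp in NC and 1037 bp in MA. Start codon peaks lay nearer, with 63.0% and 56.1% within 200 bp and medians of 36 and 52 bp, and Exon peaks farther, with 2.62% and 2.50% within 200 bp. Peak beginnings were not spread evenly: 342 NC and 247 MA peaks began 47 to 50 bp after a start, against 222 and 151 that began anywhere from 1 to 46 bp after it. A smaller pile of 92 and 99 peaks stood at 97 to 100 bp. No 5' UTR peak began exactly at a start, while 227 of 1132 NC and 120 of 811 MA start codon peaks did. The steps of about 50 bp in the deposited positions limit how finely a distance can be read.

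**Figure D2:**
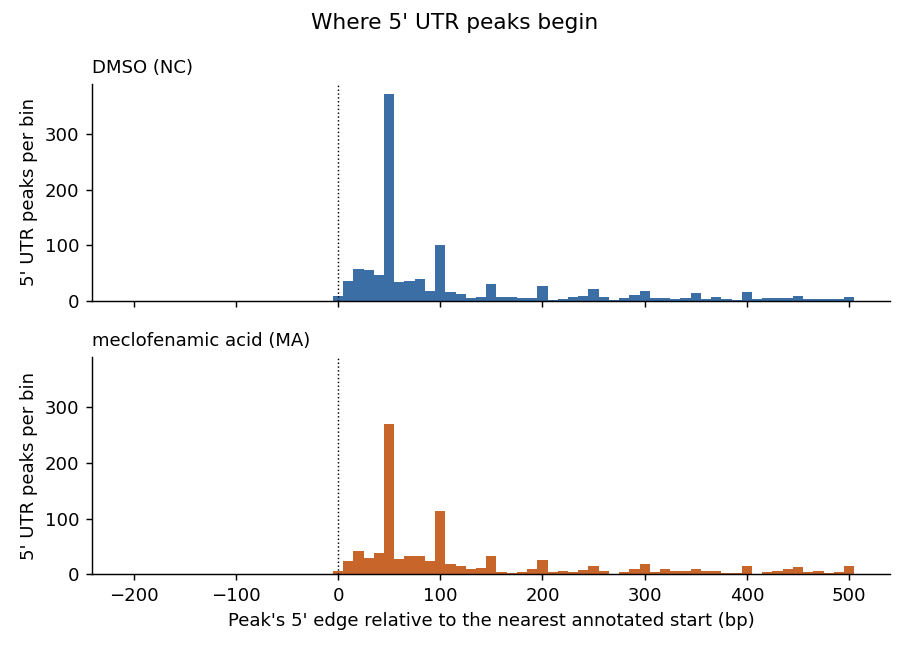
Number of 5' UTR peaks per 10 bp bin (y axis) by the distance of the peak's 5' edge from the nearest annotated start (x axis, bp; the dotted line is the start), with NC in the upper and MA in the lower panel. Both lists have their highest bin around 50 bp and a lower one around 100 bp.

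Genes with more annotated starts more often carried a 5' UTR peak. The share in either list was 30.6% (29.4 to 31.8%) of tested genes with 1 annotated start, 36.6% with 2, 37.3% with 3 and 40.6% (35.1 to 46.3%) with 4 or more. The share with a peak of any annotation ran only from 86.6% to 92.9% over the same genes. The median NC input level went the other way, from 9.31 to 6.71 FPKM (fragments per kilobase of transcript, scaled to library size).

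Within each list the 5' UTR peaks were among the narrower and less enriched. Their median exonic length was 250 bp in NC (middle range from 195 to 449 bp between the lower and upper quartile) and 299 bp in MA (199 to 544 bp). The median fold enrichment was 3.33 (quartiles 2.40 and 5.00) in NC, against 4.11 for stop codon peaks, 3.78 for 3' UTR peaks, 3.50 for Exon peaks and 3.33 for start codon peaks of the same list. In MA it was 3.00 (2.19 and 4.17), against 3.50, 3.21, 3.00 and 3.00. The 5' UTR and start codon classes thus shared the lowest median in NC, and in MA the Exon class shared it with them. The deposited lists start at a fold of 1.50, and 11.3% of NC and 15.7% of MA 5' UTR peaks lay under 2. Folds are ratios of RIP over input within a library pair and are not compared between lists here.

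**Figure D3:**
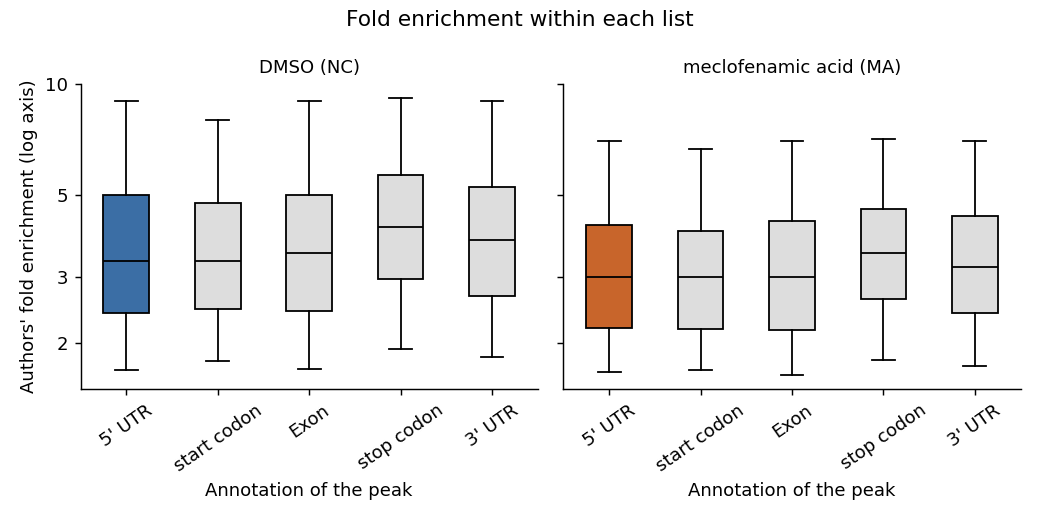
Authors' fold enrichment (y axis, log scale) by peak annotation (x axis) in the NC (left) and MA (right) list; boxes span the quartiles with the median as a line, and whiskers reach the 5th and 95th percentiles. The 5' UTR boxes (coloured) have medians of 3.33 and 3.00, below those of the stop codon class (4.11 and 3.50).

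Within genes the comparison depended on the other class. In the 1548 genes with both a 5' UTR and a 3' UTR peak in NC, the strongest 5' UTR peak had the lower fold in 948 (61.2%, 58.8 to 63.7%), and in MA in 814 of 1374 (59.2%, 56.6 to 61.9%). Against stop codon peaks of the same gene it was lower in 61.8% and 60.7%. Against Exon peaks the split was nearly even, at 50.4% and 51.04%, and against start codon peaks it was lower in 47.1% and 45.9%.

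The most enriched 5' UTR peaks lay in genes of varied function. In the NC list, in genes with at least 5 FPKM in each input and an overlapping MA peak, the highest folds were 20 in SDCBP (syntenin-1, a PDZ scaffold of exosome formation), 18 in ANKRD50, an ankyrin-repeat factor of endosome recycling, and 16 in ULK3, a kinase. PEG10, an imprinted gene derived from a retrotransposon, followed at 15.5, and PIK3R4, a subunit of the class III PI3-kinase of autophagy, at 15.2. The ANKRD50 peak lay at chr4:124710068-124711263 on the minus strand, within 1 exon and 4.24% of the way along the gene. In the MA list the highest were KBTBD4 (20), a substrate adaptor of a ubiquitin ligase, CUL1 (15), the scaffold of such ligases, TPST1 (14.7), a tyrosine sulfotransferase, CALU (12), a calcium-binding protein of the endoplasmic reticulum, and PYROXD2 (11.3). The KBTBD4 peak lay at chr11:47577633-47578027 on the minus strand, 943 bp from the nearest start. All but 1 of these 10 peaks overlapped a 5' UTR peak of the other list, the exception being PIK3R4, whose partner was annotated Exon.

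Several of the longest peaks lay far into the gene. In NC they belonged to C15orf39 (3033 bp), to ZNF608 (2950 bp), a zinc finger gene, and to ARID5B (2845 bp), a DNA-binding cofactor. The ZNF608 peak had its middle 90.1% and the ARID5B peak 96.3% of the way along the gene. That of C15orf39 began 50 bp from an annotated start and had its middle at 56.4%. Its span holds introns, and their part in this position was not tested. In MA the longest belonged to ANKRD50 (3436 bp), ANKRD12 (3389 bp), a nuclear ankyrin-repeat protein, and KIAA0754 (3233 bp). That of ANKRD12 lay 79.9% along the gene and more than 10000 bp from any annotated start, within 1 exon.

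Most genes had a single such peak. In NC 2389 of 2754 genes with a 5' UTR peak had 1 and 307 had 2, and in MA 2231 and 298 of 2576 did. The highest numbers were 6 peaks in ZNF407 (MA list, 4 in NC), 5 in CEP135 (MA, none in NC) and 5 in ZNF778 (NC, 2 in MA). CEP135 encodes a centriole protein, and its input level was 4.22 FPKM with MA against 1.19 with NC. CFLAR, an inhibitor of caspase-8, had 4 in MA and 2 in NC. CTTNBP2 had 4 in both lists, and ERAP1, the peptidase that trims antigens, had 4 in NC and 1 in MA.

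A 5' UTR peak was less often shared between the lists than other peaks. Of the NC 5' UTR peaks, 2143 (67.2%, 65.6 to 68.9%) overlapped a same-strand MA peak of any annotation by 1 bp or more, whereas 73.8% of all NC peaks did. Of the MA 5' UTR peaks, 2268 (76.2%, 74.6 to 77.7%) overlapped an NC peak, against 79.7% of all MA peaks. Only start codon peaks were lower in NC (62.9%). In MA the 5' UTR class had the lowest share, with an interval that overlapped those of the Exon (77.8%) and start codon (78.8%) classes. With both lists limited to the same number of peaks by p-value, the shares of the 5' UTR class were 70.0% (NC) and 70.1% (MA), and the gap between the lists was gone. Overlap of at least 50% of both spans left 44.3% and 50.1%. Both measures used whole spans, introns included. Limited to peaks within 1 exon in both lists, a choice made after seeing the data, the shares were 48.7% and 61.5%. Of the 5' UTR peaks 44.4% (NC) and 38.4% (MA) lay within 1 exon, against 79.9% and 75.4% of 3' UTR peaks. The part of this in the differences between classes was not tested.

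**Figure D4:**
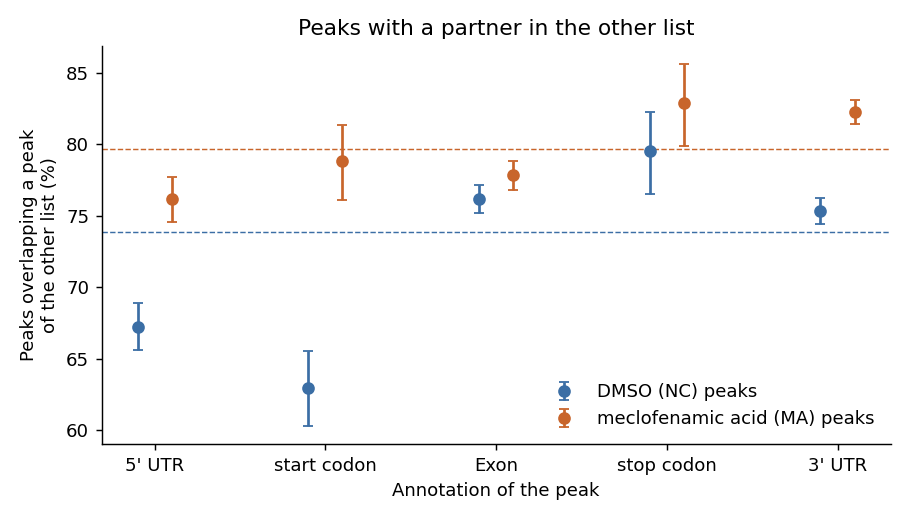
Share of peaks with a same-strand overlap of 1 bp or more in the other list (y axis, percent, not starting at 0) by annotation (x axis), for NC (blue) and MA (orange) peaks. Points carry exact 95% binomial intervals and dashed lines give the share over all peaks of each list (73.8% and 79.7%); the 5' UTR points, at 67.2% and 76.2%, lie below them.

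Shared peaks were mostly annotated alike. Of the NC 5' UTR peaks, 1819 (57.1%) overlapped an MA peak that was also annotated 5' UTR. A further 141 overlapped an Exon peak, 128 a start codon peak, 47 a 3' UTR peak and 8 a stop codon peak when counted by the largest overlap. In MA the numbers were 1812 (60.8%), 208, 188, 51 and 9.

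Peaks without a partner were weaker and shorter. In NC the 1044 peaks without one had a median fold of 2.80 and a length of 198 bp, against 3.67 and 349 bp with one, and in MA the 710 had 2.50 and 199 bp against 3.18 and 350 bp. When NC peaks were ranked by fold into 4 groups of near-equal size, the share with a partner went from 53.1% through 62.5% and 72.1% to 81.3%. The MA shares were 64.0%, 74.7%, 79.7% and 86.2%. The share of MA peaks with an NC partner also went with the NC input level, from 58.8% under 1 FPKM to 90.5% (82.8 to 95.6%) over 100 FPKM. In the NC list the corresponding shares were 56.6% and 75.9%. An overlap of 1 bp is met more easily by a longer peak, so the gap in length is partly set by the rule. The part of expression, peak strength and peak length in the missing partners was not tested further.

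The NC peaks nearest to a start were shared least. Within 200 bp of a start 58.4% (55.2 to 61.6%) of 933 NC peaks had a partner, against 69.1% of those at 201 to 10000 bp and 75.5% (72.2 to 78.7%) beyond. These peaks were also the weaker and shorter ones, with a median fold of 3.00 and 201 bp against 3.76 and 300 bp beyond 10000 bp. In MA the shares were 75.7%, 78.5% and 73.1%, without such an order. With lists of equal length the share near a start was 61.8% in NC and 68.3% in MA.

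Among the strongest peaks found in the NC list alone were those of ADAT1 and PUS1, a tRNA deaminase and a pseudouridine synthase, and of ZNF692, each with a fold of 10. CLK3, a kinase of SR splicing factors, stood at 9. Input levels of these 4 genes were between 5.92 and 36.8 FPKM in MA and between 5.75 and 29.2 FPKM in NC, with log2 differences from -0.57 to 0.33, so none reached a 2-fold difference. The authors' p-value of the ADAT1 peak was 0.01 and that of PUS1 2.09e-07, so peaks of equal fold differed widely in their p-value. In MA the strongest were ANXA4 and B4GALNT1 (9 each), MTA2 and SRGAP2 (7 each) and MEN1 (6). ANXA4 is an annexin, B4GALNT1 a ganglioside synthase, MTA2 a subunit of the NuRD complex, SRGAP2 a GTPase-activating protein and MEN1 the tumour suppressor menin. The MEN1 peak was 150 bp long and began 24 bp from a start, and the MTA2 peak, also 150 bp, began at 49 bp. Reads of SRGAP2 may be divided with its near-identical human copies, so its values are uncertain.

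The 5' UTR held the gene's only peaks in 639 of 2754 genes in NC (23.2%) and in 659 of 2576 in MA (25.6%). The other 2115 and 1917 genes, which had a peak of some other class as well, were set beside genes whose peaks were all of other classes, a comparison chosen after the values were seen. In NC 73.2% (71.2 to 75.1%) of them had a 3' UTR peak, against 71.9% of the latter, and in MA 71.7% (69.6 to 73.7%) did, against 73.1%. An Exon peak was present in 50.7% (48.5 to 52.8%) in NC, against 48.8%, and in 52.6% (50.4 to 54.9%) in MA, against 47.1%. A stop codon peak was present in 10.02% (8.78 to 11.4%) in NC and 9.96% (8.66 to 11.4%) in MA, against 7.85% and 7.22%. The 3' UTR shares of the genes without a 5' UTR peak lay inside the intervals in both lists, and the Exon share in NC did too. The MA Exon share and both stop codon shares lay below them.

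The cells' inputs matched the labelled origin in that 8 of 8 melanocyte markers were at 1 FPKM or more in both inputs. In the longer list of 17 melanocyte lineage genes, OCA2, SLC45A2 and TRPM1 were under 1 FPKM in both. Of other cell types, LUM among 6 fibroblast markers and CD68 among 5 immune markers passed 1 FPKM, and 0 of 4 endothelial and 0 of 7 epithelial markers did. LUM was at 4.96 FPKM in NC and 12.0 FPKM in MA, and CD68 at 111 FPKM in NC and 89.9 FPKM in MA. The summed melanocyte marker level was 7329 FPKM in NC and 3191 FPKM in MA, and its part in the input differences was not tested. In bulk RNA, fewer cells of a kind and less RNA per cell cannot be told apart. The relative depth of the inputs, recovered from whole-read steps in the FPKM values, was 1.12 times higher in MA, and 10564 of 14416 genes were tested.

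Of the tested genes, 3410 (32.3%) had a 5' UTR peak in either list, 24.8% in NC, 23.2% in MA and 15.7% in both. By expression level, in NC the share was 26.7% at 1 to 5 FPKM and 26.8% at 5 to 20 FPKM, but 18.5% under 1 FPKM and 16.1% over 100 FPKM. Peaks of any class had the same shape, with 86.0% and 89.0% of genes at those middle levels, 74.9% below and 58.2% over 100 FPKM. Among genes with any peak the share with a 5' UTR peak ran from 24.7% to 31.1% in NC. In MA the share of tested genes was 8.39% under 1 FPKM and 14.8% over 100 FPKM. By gene, 1722 had a 5' UTR peak in both lists, 1032 in NC only and 854 in MA only, including genes below the test level. Having the peak in 1 list seldom meant that the other list lacked peaks in the gene. Of the NC-only genes 802 (77.7%) had some peak in MA, and of the MA-only genes 726 (85.0%) had some in NC.

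Genes with a 5' UTR peak were more often higher in the MA input than genes in general. Of the 3410, 464 (13.6%, 12.5 to 14.8%) were higher by 2-fold or more on the log2(FPKM + 1) scale, against 10.3% of all tested genes, and 80 (2.35%) were lower, against 2.98%. Their median log2 difference, MA over NC, was 0.19 (0.16 to 0.23), where that of all tested genes was 0.11. Centred on a median of 0, the counts were 332 higher (9.74%) and 115 lower (3.37%), where all tested genes had 7.16% and 4.16%. The input difference went with the list in which the peak was found. The median was 0.36 (0.31 to 0.42) in the 793 tested genes with the peak in MA only, 0.21 with both and 0.06 (0.02 to 0.11) in the 960 with it in NC only. Relative to all tested genes the NC-only genes were thus on the lower side. Among MA-only genes 152 (19.2%) were higher by 2-fold, and among NC-only genes 79 (8.23%) were. Peak calls depend on how many fragments of a transcript were sequenced, and the part of the input level in these groups was not tested.

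**Figure D5:**
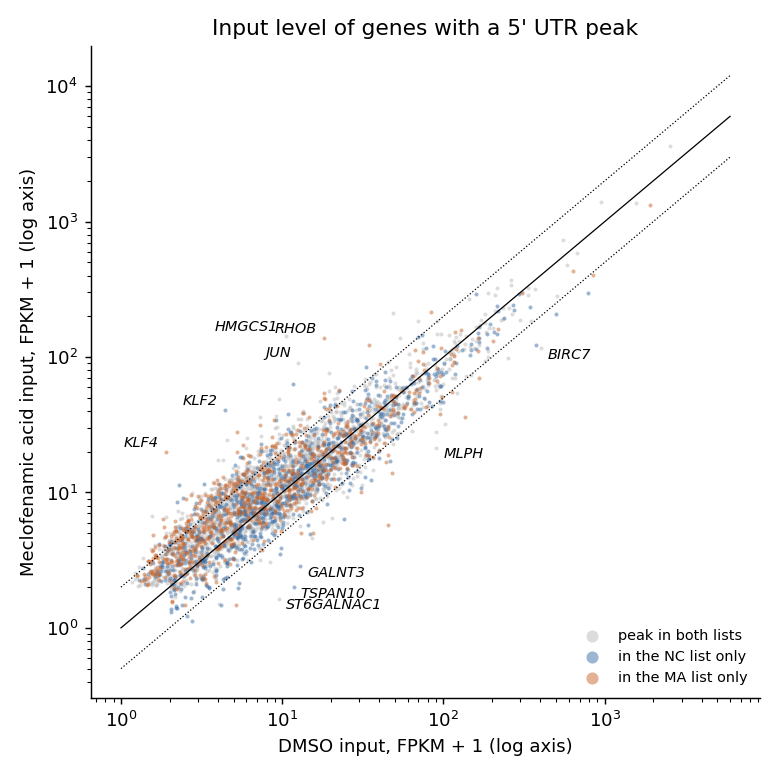
Input level in MA (y axis) against NC (x axis), as FPKM + 1 on log axes, for the 3410 tested genes with a 5' UTR peak, by the list that held the peak. The solid line marks equal values and the dotted lines a 2-fold difference; KLF4, HMGCS1 and RHOB lie far above and ST6GALNAC1, TSPAN10 and MLPH far below.

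With the pseudocount of 1, the largest input difference was that of HMGCS1, the cytosolic HMG-CoA synthase of the mevalonate pathway. Its level was 141 FPKM with MA against 9.51 with NC (log2 difference 3.76), and it had a 5' UTR peak in both lists. KLF4, a Kruppel-like transcription factor, was at 18.8 and 0.898 FPKM (3.38) and had its 5' UTR peak in MA only; with a pseudocount of 0.1 its difference, 4.24, was above the 3.88 of HMGCS1, and as TPM the 2 genes were at 3.96 and 3.91. The related KLF2 was at 39.6 and 3.44 FPKM (3.19) and had its peak in NC only, so genes with the largest differences did not share 1 pattern. RHOB, a short-lived small GTPase, was at 137 and 17.3 FPKM (2.91, peak in MA only), and JUN, a subunit of AP-1, at 89.8 and 11.6 FPKM (2.85, both lists). RCAN1, a calcineurin inhibitor, followed at 2.43 (NC only). ZNF627 (both) and CCPG1 (MA only), an autophagy receptor of the endoplasmic reticulum, were each at 2.42.

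On the lower side, PRDM7 was at 4.79 FPKM with MA against 44.3 with NC (-2.97, peak in MA only), which is uncertain because it may share reads with its close paralog PRDM9. TSPAN10, a tetraspanin of pigmented cells, was at 0.993 and 10.8 FPKM (-2.56, NC only). ST6GALNAC1 and GALNT3, enzymes of O-linked glycosylation, were at -2.53 (both) and -2.17 (NC only). MLPH, the melanophilin that ties melanosomes to myosin, was at 20.4 and 88.9 FPKM (-2.07, both). CABLES1 (MA only), ATG2A (NC only), a lipid transfer protein of autophagosome growth, and BIRC7 (both), an inhibitor of apoptosis, were at -1.93, -1.92 and -1.79. Of these 8 genes, 3 had a 5' UTR peak in both lists, 3 in NC only and 2 in MA only, and of the 8 highest in MA 3, 2 and 3 did.

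The machinery of m6A itself carried 5' UTR peaks in many members. Of the 9 m6A writer genes tested, 7 had one in either list, where 32.3% of all tested genes did. METTL3, the catalytic subunit, VIRMA and ZC3H13, scaffold subunits, and METTL16, a separate methyltransferase, had one in both lists. METTL14, WTAP and CBLL1 had one in MA only, each overlapping an NC peak annotated otherwise. RBM15 and RBM15B, which bring the complex to its targets, had none. In the inputs VIRMA was at 26.0 FPKM with MA against 8.54 with NC (1.50) and METTL14 at 5.50 and 2.17 (1.04), while METTL3 was at 26.7 and 33.6 (-0.32). FTO, the demethylase that meclofenamic acid inhibits, had a 5' UTR peak in both lists, with authors' folds of 4.43 (NC) and 3.90 (MA). Its input levels were 2.15 FPKM (NC) and 2.95 FPKM (MA). ALKBH5, the other demethylase, had peaks but none in its 5' UTR.

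All 11 m6A readers tested had a peak of some class, where 87.3% of all tested genes did. A 5' UTR peak in both lists was found in 15.7% of all tested genes and in 5 of the 11 readers. They were YTHDF1 and YTHDF3, cytoplasmic readers, YTHDC1, the nuclear reader, with 2 peaks in each list, IGF2BP2, an mRNA-stabilising reader, and HNRNPC. The YTHDC1 peaks reached folds of 9.33 in NC and 4.50 in MA. The IGF2BP2 peaks did not overlap any peak of the other list, so the same annotation in both lists did not mean the same place. YTHDF2, YTHDC2, IGF2BP3, HNRNPA2B1, FMR1 and PRRC2A had peaks elsewhere only.

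Among 15 cap and m6Am factors, 5 (33.3%) had a 5' UTR peak, close to the 32.3% of all tested genes, and each of these 5 had it in both lists. CMTR1 and CMTR2, which methylate the ribose of the first and the next base, had NC folds of 2.62 and 6. The guanine methyltransferase RNMT stood at 4.92, the cap-binding protein NCBP2 at 4.00 and LARP1, which binds the caps of terminal oligopyrimidine mRNAs, at 7.00. PCIF1, the m6Am methyltransferase, had 1 peak in each list, outside the 5' UTR, with input levels of 30.3 and 32.6 FPKM.

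The translation and energy lists had a 5' UTR peak in lower shares than the 32.3% of all tested genes. Of 75 cytosolic ribosomal protein genes only RPL6 (NC only) and RPL7 (both) had one (2.67%), although 27 had a peak of some class. Of 30 nuclear genes of the respiratory chain NDUFB10 (NC only) and UQCRC2 (MA only) did (6.67%), with 9 having any peak. The median NC level was 855 FPKM for the ribosomal protein genes, 87.9 FPKM for the respiratory chain and 84.6 FPKM for translation initiation factors. Among all tested genes the share with a 5' UTR peak in NC was 22.6% at 20 to 100 FPKM and 16.1% over 100 FPKM. The part of the level in the low shares of these lists was not tested. Of 38 translation initiation factors 6 (15.8%) had one. They included EIF2S1 and EIF2S2 of the factor that brings the initiator tRNA, and EIF2B2, EIF2B3 and EIF2B4 of its exchange factor. EIF5B, which joins the ribosomal subunits, was the other. Only EIF2B3 of these lacked a 5' UTR peak in MA. Other genes of the same functions, such as EIF2S3, EIF2B1 and EIF2B5, had none in either list. EIF5B had the highest fold of the 6 in either list, 7.00 in NC and 3.93 in MA. Proteasome subunits had one in 6 of 31 genes (19.4%), of which PSMC1, PSMC2, PSMC3 and PSMC6 are ATPases of the base. Of 27 ubiquitin-conjugating enzymes 4 (14.8%) did.

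The signalling and chromatin lists had 5' UTR peaks in 38.1% to 63.6% of their tested genes, where all tested genes had 32.3%. Of 20 WNT pathway genes 12 had a 5' UTR peak, including the co-receptors LRP5 and LRP6, the receptor FZD1, AXIN1 of the destruction complex and TCF7L2, a transcription factor, in both lists. FZD7, APC and RNF43 had one in NC only. AXIN1 had 2 peaks in each list, with a highest fold of 8.88 in NC. Of 21 TGF-beta and BMP genes 8 had one, all in both lists: BMPR2, a receptor, SMAD2, SMAD4 and SMAD5, transducers, SMAD6 and SMAD7, inhibitory members, SKIL, a repressor, and ID2, a target. In each of these 8 genes at least 1 peak of each list overlapped the other list.

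Of 20 Hippo genes 9 had a 5' UTR peak. YAP1, the coactivator, its partner TEAD1, the kinases LATS1 and LATS2, their adaptor SAV1 and AMOTL2 had it in both lists. TEAD2 and the upstream kinases STK3 and STK4 had it in MA only. Of 25 MAPK genes 11 had one. Among the feedback inhibitors, DUSP4 (2 peaks in each list, NC fold up to 10.0), SPRY2 and SPRED2 had it in both, SPRY1 in NC only, and SPRY4 and DUSP6 in MA only. Of 23 PI3K and mTOR genes 9 did, among them MTOR, RPTOR and FOXO1 in both lists, the last with a fold of 12.3 in NC. Of 22 chromatin methyltransferases 14 did, and 8 of them in both lists, including NSD1, NSD3, SETD2 and ASH1L. KMT2E had 3 peaks in NC and none in the MA 5' UTR.

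Of 18 heat shock genes 7 (38.9%) had a 5' UTR peak, where 32.3% of all tested genes did. HSPA1A and HSPA1B, the inducible HSP70 genes, had one in both lists, at folds of 2.68 and 2.74 in NC and 2.47 and 2.70 in MA. They are near-identical copies, so how reads were divided between them is uncertain. DNAJB4, an HSP40 cochaperone, had the highest fold of the group, 8.75 in NC and 4.81 in MA. BAG3, a cochaperone, had its peak in MA only and HSF1, the heat shock factor, in NC only. Of 22 genes of endoplasmic reticulum stress and the ATF4 response 6 (27.3%) had one. ATF3, ASNS and PPP1R15B had it in both lists and EIF2AK4 in NC only. ATF4, whose translation is set by upstream reading frames in its 5' UTR, had 2 such peaks in MA, with folds up to 2.22 and no partner, and none in NC. CHAC1, a target of ATF4 that degrades glutathione, had 3 in NC, with folds up to 5.00 and no partner, and none in MA. Input levels of both differed little, at 296 and 305 FPKM for ATF4 and 76.9 and 95.04 for CHAC1 in MA and NC.

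Of 15 NRF2 response genes 5 (33.3%, against 32.3% of all tested genes) had a 5' UTR peak, with HMOX1, heme oxygenase, in NC only at a fold of 7.80. SLC7A11, the cystine transporter, had it in both lists at input levels of 35.7 and 8.11 FPKM (2.01). FTH1, ferritin heavy chain, had one in both lists at 3647 and 2529 FPKM.

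Sterol synthesis genes had a 5' UTR peak in 8 of 23 (34.8%), close to the 32.3% of all tested genes. HMGCS1, SQLE, the squalene epoxidase, and EBP, a sterol isomerase, had it in both lists. IDI1, INSIG2 and SREBF1 had it in MA only, and FDPS and NSDHL in NC only. Among these 8, HMGCS1, IDI1 (2.10), SQLE (1.40) and INSIG2 (1.25) were higher by 2-fold or more in the MA input, whereas SREBF1, encoding the SREBP1 transcription factor, was at -0.43. In the whole list, with or without a 5' UTR peak, 12 of 23 genes were higher by 2-fold or more. Of all tested genes 10.3% were.

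Of 17 listed melanocyte lineage genes 14 were tested. Of these 14, 7 had a 5' UTR peak, where 32.3% of all tested genes did. TYR, tyrosinase, and MLPH had it in both lists, MLANA and SLC24A5 in NC only, and PAX3, TYRP1 and RAB27A in MA only. TYR was at 98.1 FPKM with MA against 249 with NC (-1.33), MLANA at 122 and 375 (-1.62) and SLC24A5, a melanosomal exchanger, at 17.1 and 39.0 (-1.14). TYRP1, at 1327 and 1921 FPKM (-0.53), had a weak MA peak of fold 1.77. Of all 14 tested genes of the list 8 were lower by 2-fold or more, where 2.98% of all tested genes were. The 8 included genes with no 5' UTR peak such as DCT (-1.54) and PMEL (-1.69).

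The remaining lists lay on both sides of the 32.3% of all tested genes. Of 21 G2 and M phase genes 7 (33.3%) had a 5' UTR peak: MKI67 and BUB1B in both lists, KIF11 and AURKB in NC only, and TTK, NUSAP1 and CDC25C in MA only. Of 20 S phase genes MCM7, CCNE2 and RFC2 (15%) did. Of 22 SR and hnRNP splicing factors 10 (45.5%) did, among them SRSF5, SRSF10, TRA2A, HNRNPD, HNRNPF and HNRNPH1 in both lists. Of 17 genes linked to uveal melanoma 7 (41.2%) did. In that list HTR2B, a serotonin receptor used as a marker of metastatic risk, had folds of 7.00 in NC and 4.29 in MA, and ROBO1, a guidance receptor, had an MA peak of fold 19.0. These lists were written with earlier results in view, and no list was tested against the rest.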

How the data were processed

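Poly(A) RNA of OMM2.3 cells was fragmented and sequenced as input and after immunoprecipitation with an antibody to m6A, per the labels' protocols. The build was GRCh38.p13, and ChIPseeker, deepTools, HISAT, HISAT2 and Trimmomatic were used, per the submitters' processing notes. For the peak caller, its thresholds and the transcript set, nothing is given in the sources used here. The authors deposited FPKM values of both inputs and, per the file headers, a p-value, a false discovery rate and a fold enrichment (a linear ratio of RIP over input) for each peak. RIP depths and absolute input depths were not derived here. The inputs' relative depth came from whole-read ratios: 75.2% of 13055 genes resolved within a relative tolerance of 2e-09.

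Repeated rows were counted as 1 peak and starts raised by 1. Partners overlapped by at least 1 bp on the same strand. The files gave no exon positions, so whole spans with introns were used. Inputs were compared as log2 of MA FPKM + 1 over NC FPKM + 1, in genes reaching 1 FPKM in either input, which understates low genes; 2-fold or more was counted. Intervals are exact Clopper-Pearson or, for medians, order-statistic intervals at 95%. Of the 5' UTR peaks, 3165 NC and 2954 MA peaks matched the gene table and 22 and 24 did not. Start sequences came from 35116 RefSeq entries (GRCh38.p14), with 8698 of 10564 tested genes matched. Of peaks with a gene symbol in that table, 98.5% (NC) and 99.0% (MA) lay within the gene's span there. Scripts used Python 3.11.15, pandas 2.3.3 and scipy 1.17.1 and were tested on simulated data.

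Named genes are the 5 peaks of highest fold with and without a partner in each list (genes at 5 FPKM in both inputs), the 8 highest and 8 lowest input differences (5 FPKM in either input), the top 3 by number and by length in each list, and members of the gene lists with a 5' UTR peak. Members and lists were chosen with earlier results of these data known. A few members of these sets are not reported here.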

Additional observations from a re-analysis of the deposited data

How the results depend on the processing

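No paired analysis was possible because each group held 1 sample, and leaving out a library was not run for the same reason. Main overlaps already used whole spans, so that alternative gave no second value. Peak numbers and shares of each list stayed within their intervals or within 1.5 times under every alternative run.

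The share of NC and MA 5' UTR peaks with a partner (67.2% and 76.2%) was 44.3% and 50.1% with overlap of at least 50% of both spans, 57.1% and 60.8% where the partner had to be a 5' UTR peak, and 70.0% and 70.1% with lists of equal length. With a fold of at least 2 in both lists it was 63.2% in NC. Limited to peaks within 1 exon, an alternative chosen after seeing the data, it was 48.7% and 61.5%. Near a start, where all alternatives were chosen after seeing the data, the shares (58.4% and 75.7%) were 42.6% and 56.3% by the 50% overlap and 61.8% and 68.3% with equal lists, and 51.7% in NC with a fold of at least 2.

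With genes limited to at least 5 FPKM in each input, the median fold was 3.00 (NC) and 2.65 (MA), and 26.3% and 28.9% of genes had no other peak. Limited to genes with a peak of another class too, a choice made after seeing the data, 73.2% and 71.7% had a 3' UTR peak, against 56.2% and 53.3%, by construction. Starts within 50 bp, chosen after seeing the data, had adenosine in 63.3% and 65.5%.

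The 464 genes higher by 2-fold (13.6%, all tested genes 10.3%) became 711 with a pseudocount of 0.1 (20.9%, all 17.0%), 108 with 5 (3.17%, all 2.58%) and 718 as TPM (21.1%, all 17.0%), and the 80 lower became 39 with a pseudocount of 5. The median difference of genes with a peak in either list, in both, and in MA only was 0.13, 0.14 and 0.21 with a pseudocount of 5. It was 0.14, 0.16 and 0.26 with a filter of 5 FPKM, 0.28, 0.31 and 0.48 as TPM, and 0.079, 0.10 and 0.25 after centring. That of NC-only genes was 0.13 as TPM and turned to -0.055 after centring. TPM moved the median of all tested genes from 0.11 to 0.20. The 16 genes named for their input difference kept direction and stayed beyond 2-fold under each setting run. Pseudocounts limit low genes most.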

Other observations

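Transcription factor genes, grouped by the family given in the deposited gene table, also held 5' UTR peaks. Of 24 bZIP genes tested 11 (45.8%) had one in either list, as did 11 of 24 bHLH genes. Chromatin remodelling factors had one in 15 of 35 (42.9%) and C2H2 zinc finger genes in 42 of 105 (40%), where 32.3% of all tested genes did. Almost all of these genes had a peak of some class: 24 of the 24 bZIP genes, 23 of the bHLH genes and 104 of the zinc finger genes did, against 87.3% of all tested genes. The median NC level was 12.5 FPKM for bZIP, 19.3 for bHLH and 2.90 for C2H2 zinc finger genes. No family was tested against the rest.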
